A study of Mus musculus with 8 samples.

Results

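The 10 genes described here encode the enzymes that write, maintain and remove DNA methylation and the core of Polycomb repressive complex 2: Dnmt1, Dnmt3a, Dnmt3b, Uhrf1, Tet1, Tet2, Tet3, Ezh1, Ezh2 and Suz12. They were chosen by name, from what their proteins do, with earlier results of these data known. All 10 were found among the 39179 genes of the count table, and all 10 passed the filter on low counts that left 18345 genes for testing. RNA from whole tissue was sequenced in 8 mouse libraries. The 3 wild-type (WT) libraries came from small intestine of VilCreER+ mice. The 5 adenoma libraries were labelled as small intestinal adenomas of aged VilCreER+ APCfl/+ mice, in which 1 Apc allele was floxed. Both groups carried the VilCreER transgene, in which the villin promoter drives a tamoxifen-inducible Cre recombinase in intestinal epithelium, both had undergone tamoxifen-induced recombination in vivo, and both were on an inbred C57BL6/J background. The labels state neither the age of the WT mice nor whether each library came from a separate mouse, so the p-values cover only the spread among libraries, which may be technical. Because adenoma was compared with whole intestine, more or fewer cells of a type and more or less RNA per cell cannot be told apart.

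DNA methylation in mammals is set on cytosines of CpG dinucleotides. Dnmt3a and Dnmt3b place new methyl groups, while Uhrf1 recognises hemimethylated DNA behind the replication fork and brings in Dnmt1, which copies the pattern to the daughter strand. The Tet dioxygenases oxidise 5-methylcytosine and so start its removal. Polycomb repressive complex 2 (PRC2) methylates lysine 27 of histone H3 through one of 2 alternative catalytic subunits, Ezh1 or Ezh2, and Suz12 is the scaffold on which the complex is built. In the intestinal epithelium, Dnmt1, Uhrf1 and Ezh2 are best known from the dividing crypt compartment.

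Total counts ran from 18040301 to 28343915 per library. Apc itself was at 191 to 211 CPM in WT and at 132 to 158 CPM in adenoma, with no overlap. CPM are read counts relative to library size, here scaled by the trimmed mean of M-values (TMM). Epcam, a marker of all epithelium, was detected at 929 to 1127 CPM in WT and 1030 to 1841 CPM in adenoma, so both groups held epithelial RNA. Villin (Vil1), whose promoter drives the Cre, was at 1833 to 2334 CPM in WT and at 354.5 to 983 CPM in adenoma. Several libraries stood apart. The library labelled adenoma 2 had Hoxb13, a homeobox gene of the posterior body, at 245 CPM against at most 0.893 CPM elsewhere. Its Gata4, a transcription factor of the proximal small intestine, was at 0.469 CPM against 68.3 CPM or more elsewhere. Both genes were chosen after their values were seen. These values go against the small intestine given in the label of adenoma 2, and the origin of that library was not tested. WT 1 and adenoma 5 had the pancreatic lipase gene Pnlip at 189.8 and 63.5 CPM, against at most 0.797 CPM in the others. The 3 WT libraries and adenoma 1 had Xist at 1.16 to 1.74 CPM, and adenomas 2 to 5 at 432 to 760 CPM, so sex and group were largely overlaid. Their part in the results was not tested beyond the values without these libraries, or with the Xist pattern as a covariate, given below. Only adenoma 1 shared the low Xist of the WT libraries, so the covariate fit sets that 1 adenoma against WT.

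A promoter window of each of 5 of the genes is shown. These genes were picked for how they varied over the libraries. Dnmt1, Uhrf1 and Suz12 varied together with genes of DNA replication, Ezh2 did not, and Tet3 differed most between the groups. Each window runs from 250 bases before to 50 bases after a transcription start and is taken from RefSeq on GRCm38.p6, 5′ to 3′ on the gene's strand. Capitals mark matches, on either strand, to words bound by E2F factors (TTTCCCGC, TTTGGCGC, TTTCGCGC or TTTGCCGC) or by TCF factors (CTTTGAT or CTTTGAA).
Dnmt1, chr9:20952574-20952873, minus strand: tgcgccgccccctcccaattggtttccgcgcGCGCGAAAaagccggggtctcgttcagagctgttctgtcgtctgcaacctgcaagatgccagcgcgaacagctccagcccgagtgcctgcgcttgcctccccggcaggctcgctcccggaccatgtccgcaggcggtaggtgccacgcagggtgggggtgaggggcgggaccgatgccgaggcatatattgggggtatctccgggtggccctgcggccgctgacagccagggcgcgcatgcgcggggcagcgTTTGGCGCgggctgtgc
Uhrf1, chr17:56304063-56304362, plus strand: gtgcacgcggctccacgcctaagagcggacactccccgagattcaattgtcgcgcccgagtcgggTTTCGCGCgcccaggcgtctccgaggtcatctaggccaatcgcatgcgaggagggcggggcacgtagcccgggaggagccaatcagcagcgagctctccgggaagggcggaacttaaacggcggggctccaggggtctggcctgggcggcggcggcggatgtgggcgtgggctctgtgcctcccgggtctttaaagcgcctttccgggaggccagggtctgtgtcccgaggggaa
Suz12, chr11:79992856-79993155, plus strand: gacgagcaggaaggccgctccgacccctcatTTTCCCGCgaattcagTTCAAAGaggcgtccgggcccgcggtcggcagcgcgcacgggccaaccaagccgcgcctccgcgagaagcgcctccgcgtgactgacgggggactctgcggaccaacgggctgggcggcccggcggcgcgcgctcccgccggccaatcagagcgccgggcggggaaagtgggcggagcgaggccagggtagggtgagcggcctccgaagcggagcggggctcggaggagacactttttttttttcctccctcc
Ezh2, chr6:47594981-47595280, minus strand: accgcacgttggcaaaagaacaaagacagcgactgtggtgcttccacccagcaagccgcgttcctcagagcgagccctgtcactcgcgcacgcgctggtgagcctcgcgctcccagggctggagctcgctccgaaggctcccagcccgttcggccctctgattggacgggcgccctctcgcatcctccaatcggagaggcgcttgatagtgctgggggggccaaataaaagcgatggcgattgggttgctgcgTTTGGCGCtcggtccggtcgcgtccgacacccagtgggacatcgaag
Tet3, chr6:83441629-83441928, minus strand: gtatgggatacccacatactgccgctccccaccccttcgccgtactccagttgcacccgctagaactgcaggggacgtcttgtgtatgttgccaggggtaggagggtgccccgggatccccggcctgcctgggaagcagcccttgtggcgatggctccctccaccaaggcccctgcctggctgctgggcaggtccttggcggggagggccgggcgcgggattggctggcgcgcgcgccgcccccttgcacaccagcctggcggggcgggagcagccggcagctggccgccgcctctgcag
The Dnmt1 window shown holds an E2F word on the opposite strand at -219 to -212 and another at 33 to 40, counted with the start base as 0. The Uhrf1 window shown holds one at -185 to -178, the Suz12 window one at -219 to -212 and the Ezh2 window one at 3 to 10. The Tet3 window holds none of these words. Dnmt1 has 3 windows and Uhrf1 has 2, and for both the window shown is the one with an E2F word. Their other windows hold 0 E2F words, and a Dnmt1 one holds 1 TCF word. All 4 windows with an E2F word are thus among those shown. The Suz12 capitals at -203 to -197 are a TCF word. Over all 15 windows of the 10 genes, 4 held an E2F word (26.7%), against 2.26% of 32851 windows of all genes and 8 of 19 windows of the S phase genes used below (42.1%). Each of these E2F words contains a CpG, and 14 of the 15 windows hold 12 to 57 CpG, against a median of 7 over all windows. Among windows with at least 12 CpG, a minimum chosen after these counts were seen, 4 of those 14 held an E2F word (28.6%), against 4.73% of 13006. TCF words were in 2 of the 15 (13.3%), against 8.65% of all windows. The short word CCAAT, also searched on both strands, was in 7 of 15 (46.7%), against 37.4% of all windows. A match of letters is not a binding site, and the absence of one concerns only this window.

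Adenomas had more Dnmt3b RNA and less Tet3, Dnmt3a and Ezh1 RNA than WT intestine, while the maintenance pair Dnmt1 and Uhrf1 and the catalytic subunit Ezh2 were not called different. By edgeR's quasi-likelihood test at a Benjamini-Hochberg adjusted p of 0.05, 1 of the 10 genes was higher in adenoma, 3 were lower and 6 were not called. Over all genes tested, 58.1% were called, 30.3% as higher and 27.8% as lower. The 4 of 10 called are therefore no more than the share of all genes. The WT and adenoma values did not overlap for 4 of the 10, against 56.9% of all genes. The median log2 fold change of the 10 was -0.23, beside 0.04 for all genes tested, and Tet3 had the largest of the 10 in size. Among all genes, 24.9% had a smaller p than Tet3.

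**Figure D1:**
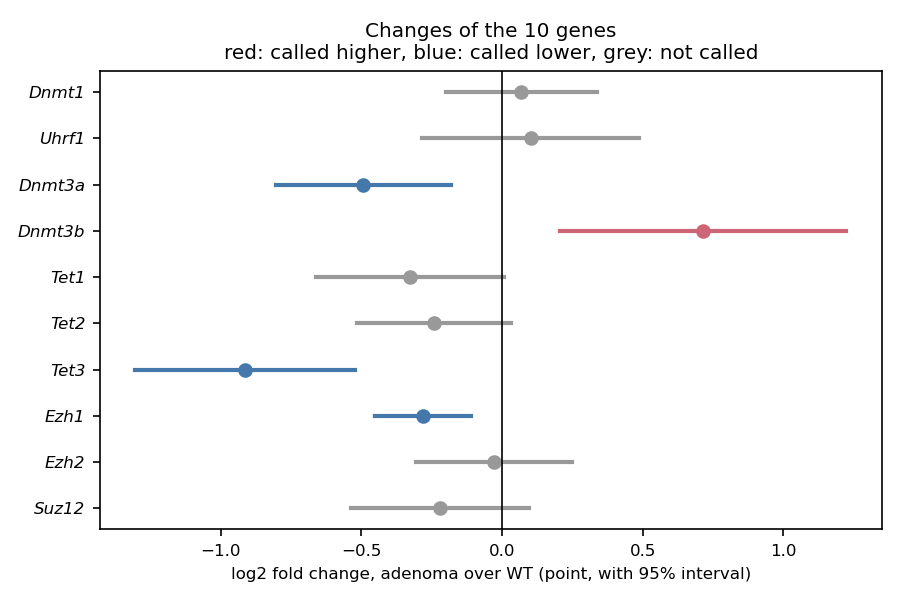
Log2 fold change of each of the 10 genes, adenoma over WT, on the horizontal axis, with its 95% interval as a bar. Tet3 lies farthest from 0, at -0.91, Dnmt3b is the only gene called higher, and the intervals of Dnmt1, Uhrf1, Tet1, Tet2, Ezh2 and Suz12 include 0.

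No difference was called in the maintenance machinery. Dnmt1 (chr9:20907209-20959888, minus strand, GRCm38) was at 94.8, 126.5 and 119 CPM in the WT libraries and at 117, 104, 125, 131 and 118 CPM in adenomas 1 to 5. WT 1 was the lowest of the 8 and adenoma 2 the next lowest, and the groups overlapped. Group means were 113 ± 16.6 CPM (SD, n = 3) and 119 ± 10.1 CPM (SD, n = 5). The log2 fold change was 0.07 ± 0.12 (SE), with a 95% interval of -0.20 to 0.34 and an edgeR adjusted p of 0.639. Uhrf1 (chr17:56303321-56323486, plus strand), the reader of hemimethylated DNA, was at 40.1, 58.0 and 53.0 CPM in WT and at 53.5, 39.7, 61.1, 62.8 and 52.9 CPM in the adenomas. Again WT 1 was low among WT and adenoma 2 was the lowest of all. Its log2 fold change was 0.10 ± 0.17 (SE), with an interval of -0.28 to 0.49 and an edgeR adjusted p of 0.626. Both signs turned negative when libraries were scaled to equal epithelial markers (-0.27 for Dnmt1, -0.26 for Uhrf1) or to equal S phase counts (-0.28 and -0.26), still without a call. Those scalings moved the median of all genes from 0.04 to -0.27 and -0.32.

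The 2 de novo methyltransferases moved in opposite directions. Dnmt3a (chr12:3806007-3914443, plus strand) was at 86.6, 87.7 and 95.2 CPM in WT and at 56.3, 83.4, 61.9, 54.6 and 63.1 CPM in the adenomas. Every adenoma was below every WT library, but adenoma 2 came close to the WT values. Dnmt3a was 1.41-fold lower in adenoma, falling from 89.8 ± 4.67 (SD, n = 3) to 63.9 ± 11.5 CPM (SD, n = 5). Its log2 fold change was -0.49 ± 0.14 (SE), with an interval of -0.80 to -0.18 and an edgeR adjusted p of 0.0138. Without adenoma 2 it was -0.61, with an adjusted p of 1.16e-04. The call was lost without WT 3, at an adjusted p of 0.0567. Dnmt3b (chr2:153649450-153687730, plus strand), the enzyme prominent in early embryos, was among the low genes, at 84 to 250 counts per library. It was at 4.27, 5.12 and 6.76 CPM in WT and at 9.31, 11.7, 8.93, 6.69 and 7.57 CPM in the adenomas. Adenoma 4 lay just below WT 3, so the groups overlapped at that one point, and adenoma 2 was the highest. Dnmt3b rose 1.64-fold, from 5.38 ± 1.26 (SD, n = 3) to 8.85 ± 1.92 CPM (SD, n = 5). The log2 fold change was 0.72 ± 0.22 (SE), with an interval of 0.21 to 1.22 and an edgeR adjusted p of 0.0230. Dnmt3b stayed higher in adenoma under all 21 other settings tried, but its call was lost under 8, including without WT 1 (adjusted p 0.0839) and without WT 2 (0.0701).

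**Figure D2:**
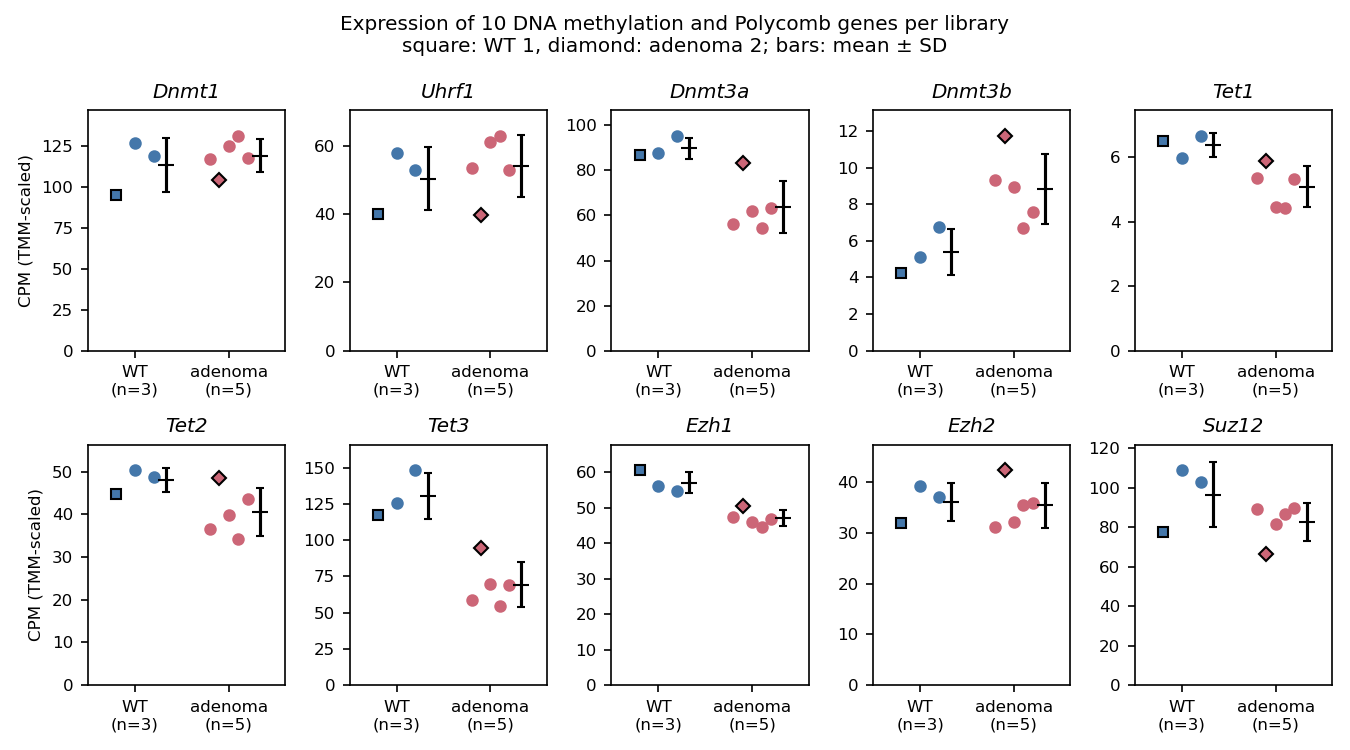
Expression of each gene in TMM-scaled CPM on vertical axes that start at 0, with 1 point per library, WT on the left and adenoma on the right of each panel, and mean ± SD as bars. The square is WT 1, which is the lowest WT library for 8 of the 10 genes, and the diamond is adenoma 2, which is the highest or lowest adenoma for all 10.

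Among the Tet dioxygenases, Tet3 fell and the other two were not called. Tet3 (chr6:83362373-83459084, minus strand) was at 118, 126 and 148 CPM in WT and at 58.8, 94.5, 69.8, 54.6 and 69.2 CPM in the adenomas. The groups did not overlap, and adenoma 2 was the adenoma nearest to WT. The means were 131 ± 15.9 CPM (SD, n = 3) and 69.4 ± 15.5 CPM (SD, n = 5), 1.88-fold lower in adenoma. The log2 fold change was -0.91 ± 0.17 (SE), with an interval of -1.30 to -0.52 and an edgeR adjusted p of 0.00214. It was called lower in 21 of 21 other settings, with log2 fold changes of -1.21 to -0.81. It was the only one of the 10 genes with a call in every setting. In 1 of these settings, the Xist covariate, adenoma 1 alone is set against WT. Tet2 (chr3:133463679-133545139, minus strand), which unlike Tet1 and Tet3 lacks a CXXC domain of its own, was at 44.9, 50.3 and 48.9 CPM in WT and at 36.6, 48.5, 39.9, 34.3 and 43.7 CPM in the adenomas. Only adenoma 2 reached into the WT range. Its log2 fold change was -0.24 ± 0.12 (SE), with an interval of -0.52 to 0.03 and an edgeR adjusted p of 0.114, and without adenoma 2 it was -0.32 with an adjusted p of 0.0149. Tet1 (chr10:62804570-62908996, minus strand), known from embryonic stem cells, was the lowest gene of the family, at 100 to 157 counts per library. It was at 6.51, 5.96 and 6.65 CPM in WT and at 5.35, 5.86, 4.46, 4.41 and 5.31 CPM in the adenomas. Each adenoma was below each WT library, by little for adenoma 2. The log2 fold change was -0.33 ± 0.15 (SE), with an interval of -0.66 to 0.01 and an edgeR adjusted p of 0.0858. Without adenoma 2, Tet1 passed the threshold at -0.39, with an adjusted p of 0.0353.

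Of the PRC2 core, Ezh1 fell slightly and Ezh2 and Suz12 were not called. Ezh1 (chr11:101191115-101226463, minus strand), the catalytic subunit known from non-dividing cells, was at 60.5, 56.0 and 54.7 CPM in WT and at 47.2, 50.6, 45.9, 44.4 and 46.8 CPM in the adenomas. The groups did not overlap and each was tight, at 57.0 ± 3.04 (SD, n = 3) and 47.0 ± 2.27 CPM (SD, n = 5). The difference was 1.21-fold, a log2 fold change of -0.28 ± 0.08 (SE) with an interval of -0.45 to -0.11 and an edgeR adjusted p of 0.0117. When libraries were scaled by total counts alone the value was -0.20 and the call was lost, at an adjusted p of 0.108. Ezh2 (chr6:47530139-47595341, minus strand), the subunit of dividing cells, was at 31.9, 39.3 and 37.1 CPM in WT and at 31.1, 42.3, 32.2, 35.5 and 35.9 CPM in the adenomas. The groups overlapped fully, with the highest and lowest of the 8 libraries both in adenoma. The log2 fold change was -0.03 ± 0.12 (SE), with an interval of -0.30 to 0.25 and an edgeR adjusted p of 0.850. Suz12 (chr11:79993106-80034123, plus strand) was at 77.6, 109 and 103 CPM in WT and at 89.3, 66.4, 81.3, 86.7 and 89.7 CPM in the adenomas. WT 1 lay inside the adenoma range and adenoma 2 was the lowest of all. Its log2 fold change was -0.22 ± 0.14 (SE), with an interval of -0.54 to 0.09 and an edgeR adjusted p of 0.200. It was called lower with epithelial scaling (-0.56, adjusted p 0.0329) and under 2 settings chosen after seeing the data, S phase scaling (-0.57, adjusted p 0.00688) and without WT 1, adenoma 2 and adenoma 5 together (-0.30, adjusted p 0.00873). Antisense transcripts overlap exons of 4 of the genes, by 133 bases in Dnmt3a, 174 in Ezh2, 178 in Suz12 and 43 in Tet2, and their reads cannot be told apart because the library kit did not mark strand.

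Levels of different genes were compared as CPM per kilobase of annotated exon. In WT the order was Suz12 (19.5 ± 3.35), Dnmt1 (15.4 ± 2.25), Uhrf1 (11.8 ± 2.17), Tet3 (7.82 ± 0.95), Ezh1 (7.67 ± 0.41), Ezh2 (5.41 ± 0.57), Dnmt3a (5.40 ± 0.28), Tet2 (2.85 ± 0.17), Dnmt3b (1.05 ± 0.25) and Tet1 (0.412 ± 0.024, all SD, n = 3). The ranges of neighbours overlapped within the first 3, between Tet3 and Ezh1 and between Ezh2 and Dnmt3a, and were separate elsewhere in that order. Ezh2 was above Dnmt3a in only 1 of the 3 WT libraries. In adenoma Suz12 (16.7 ± 1.97), Dnmt1 (16.1 ± 1.37) and Uhrf1 (12.7 ± 2.14, SD, n = 5) again came first by mean, with overlapping ranges. Suz12 was above Dnmt1 in only 2 of the 5 adenomas. Tet3 moved from rank 4 to rank 6 there, at 4.16 ± 0.93, behind Ezh1 (6.32 ± 0.31) and Ezh2 (5.30 ± 0.66). Dnmt3a followed at 3.84 ± 0.69, Tet2 at 2.41 ± 0.34, Dnmt3b at 1.73 ± 0.38 and Tet1 at 0.329 ± 0.041 (SD, n = 5). In adenoma, neighbours had separate ranges between Uhrf1 and Ezh1, between Dnmt3a and Tet2 and between Dnmt3b and Tet1.

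Ratios within a library do not depend on how the libraries are scaled. The ratio of Dnmt3b to Dnmt3a per kilobase was 0.161, 0.190 and 0.231 in WT and 0.539, 0.458, 0.470, 0.400 and 0.391 in adenomas 1 to 5. Every adenoma lay above every WT library, with means of 0.194 ± 0.0354 (SD, n = 3) and 0.452 ± 0.0600 (SD, n = 5), and adenoma 2 stood in the middle of its group. The ratio of Tet3 to Tet2 was 2.65, 2.53 and 3.07 in WT and 1.62, 1.97, 1.77, 1.61 and 1.6 in the adenomas. These groups also did not overlap. Tet3 accordingly made up 70.5% ± 1.98 of the summed Tet RNA per kilobase in WT and 60.0% ± 2.26 in adenoma (SD). The sum of the 3 Tet genes was 11.1 ± 1.05 CPM per kilobase in WT (SD, n = 3) and 6.89 ± 1.28 in adenoma (SD, n = 5), while the sum of the 3 methyltransferases was 21.8 ± 2.55 and 21.7 ± 0.628. The ratio of Ezh2 to Ezh1 was 0.588, 0.782 and 0.755 in WT and 0.734, 0.932, 0.781, 0.890 and 0.854 in adenoma, and here the groups overlapped. Uhrf1 to Dnmt1 was nearly level, at 0.766 ± 0.0309 (SD, n = 3) and 0.783 ± 0.0731 (SD, n = 5). No test was made of these ratios.

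**Figure D3:**
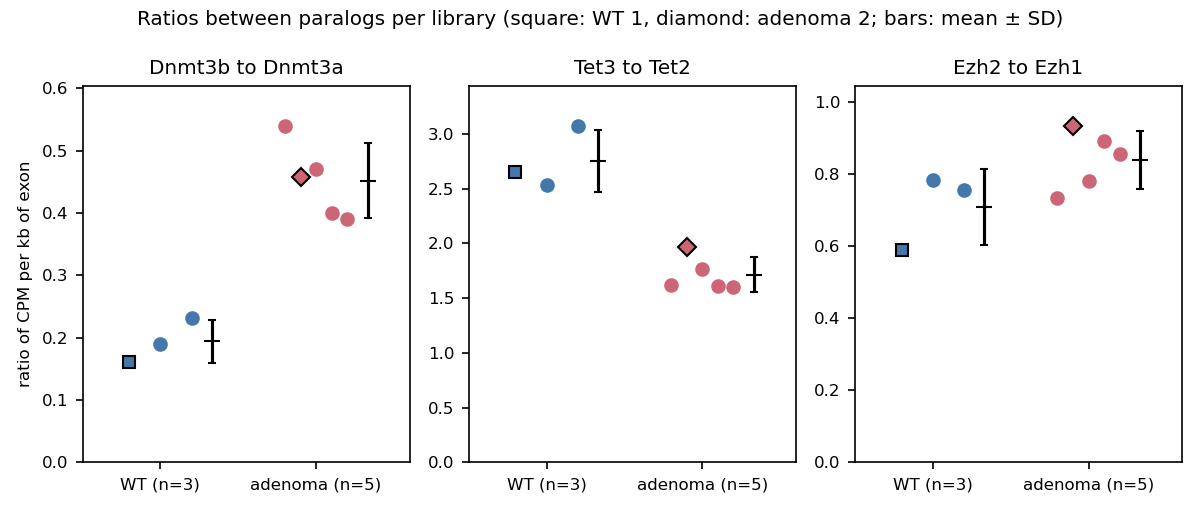
Ratio of CPM per kilobase of exon between paralogs, on vertical axes that start at 0, with 1 point per library and mean ± SD as bars. The 5 adenomas lie above the 3 WT libraries for Dnmt3b to Dnmt3a and below them for Tet3 to Tet2, and the groups overlap for Ezh2 to Ezh1.

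Among the adenomas, the library labelled adenoma 2 set the genes apart in opposite directions. It was the highest adenoma for Dnmt3a, Dnmt3b, Tet1, Tet2, Tet3, Ezh1 and Ezh2 and the lowest for Dnmt1, Uhrf1 and Suz12. It was thus at an extreme for 10 of 10 genes, as it was for 72.9% of all genes tested. WT 1 was the lowest WT library for 8 of the 10, Dnmt1, Uhrf1 and Suz12 as well as Dnmt3a, Dnmt3b, Tet2, Tet3 and Ezh2. WT 1 was the highest for Ezh1, so Ezh1 stood opposite to Dnmt1, Uhrf1 and Suz12 there too. It was at an extreme of the WT libraries for 9 of 10, against 76.9% of all genes. Over the 8 libraries, as log2 CPM less the mean of the library's own group, Pearson's r was 0.97 between Dnmt3a and Tet3, 0.96 between Dnmt1 and Uhrf1, 0.91 between Tet2 and Tet3, 0.87 between Dnmt1 and Suz12, and -0.95 between Uhrf1 and Ezh1. Ezh2 was near 0 with Dnmt1 (0.07) and with Suz12 (-0.08). These are descriptions of 8 points that share their libraries and scaling and in which WT 1 and adenoma 2 carry much of the range.

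Dnmt1, Uhrf1 and Suz12 varied with genes of the cell cycle inside the groups, and other genes of the 10 varied as closely with other marker lists. The summed level of 20 S phase genes, the replication factors expressed as DNA is copied, was 617, 875 and 791 CPM in WT and 1020, 726, 1031, 1139 and 965 CPM in the adenomas, so WT 1 and adenoma 2 were the lowest of their groups. Its r with the within-group departures was 0.98 for Uhrf1, 0.95 for Dnmt1 and 0.91 for Suz12, and -0.93 for Ezh1. For Ezh2 it was -0.21. Within WT, however, Ezh2 followed the order of the S phase sum, at 31.9, 39.3 and 37.1 CPM. Adenoma 2 had the highest Ezh2 of the 8 libraries, at 42.3 CPM, with the lowest S phase sum of the adenomas. How far the Ezh2 value rests on adenoma 2 was not tested. The same held with 14 mitosis genes, where r was 0.97 for Uhrf1, 0.96 for Dnmt1, 0.95 for Suz12 and -0.13 for Ezh2. With the summed epithelial markers r was -0.88 for Dnmt3a and Tet2, -0.86 for Ezh2 and -0.81 for Tet3, and 0.60 for Uhrf1. With the fibroblast markers it was 0.86 for Tet2 and 0.85 for Ezh2, and with the macrophage and neutrophil markers -0.82 for Uhrf1. Between the groups, 5 of the 20 S phase genes were called higher and 0 lower by edgeR (8 had an unadjusted p under 0.05, and DESeq2 and limma-voom also called 5 higher and 0 lower). The 25.0% called higher is below the 30.3% of all genes. The list's median was 0.33 on the log2 scale. Without adenoma 2, 12 were called higher, and the share of all genes called in either direction was 67.5% in place of 58.1%. Pcna, the replication clamp, was at 40.9 ± 2.87 CPM in WT and 61.6 ± 8.80 CPM in adenoma (SD), a log2 fold change of 0.59 ± 0.13 (SE, edgeR adjusted p 0.00458). Of 14 mitosis genes, 5 were called higher and 1, the proliferation marker Mki67, lower, at 322 ± 60.4 and 211 ± 25.1 CPM (SD). The 35.7% higher is near the 30.3% of all genes, and the 7.14% lower stands beside 27.8%.

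**Figure D4:**
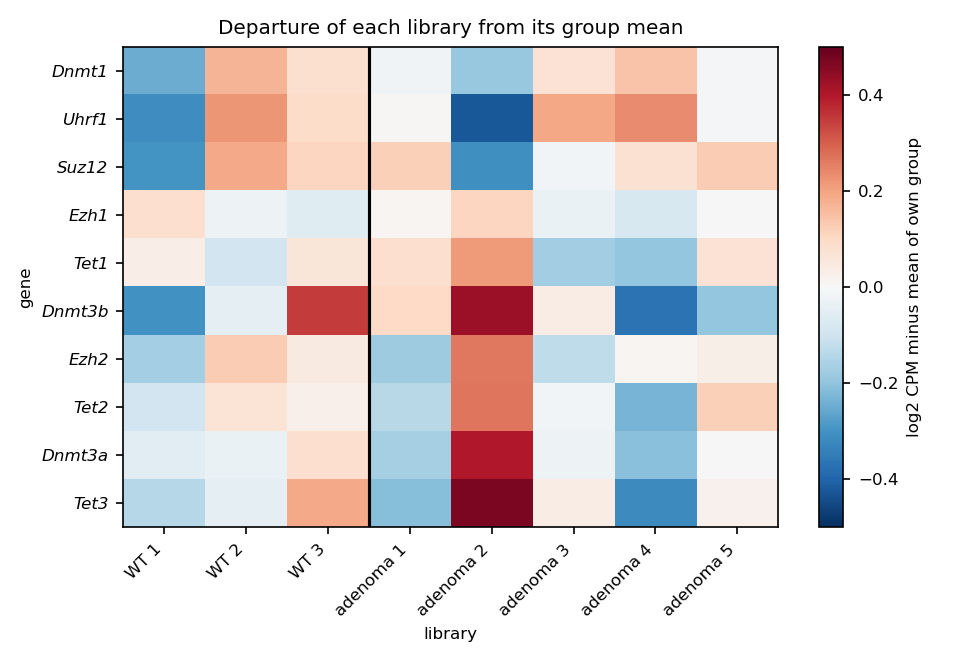
Heat map of log2 CPM less the mean of the library's own group, for the 10 genes (vertical) in the 8 libraries (horizontal). Adenoma 2 is positive for Tet3 (0.47), Dnmt3b (0.43) and Dnmt3a (0.40) and negative for Uhrf1 (-0.43), Suz12 (-0.31) and Dnmt1 (-0.19).

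The genes most like each of the 10 were sought among 11499 named genes averaging 5 CPM or more, by the same r over 8 libraries. For Uhrf1 they were Iqgap3 (0.99), Polq (0.99), a DNA polymerase of break repair, and Lsm8 (0.99). For Dnmt1 they were Ptges3-ps, a pseudogene that may share reads with Ptges3, Noc4l and Kbtbd8 (all 0.99), and for Suz12 Anp32e, Grsf1 (both at or above 0.99) and Agpat5 (0.98). For Tet3 they were Cacna1a, Mtss1l and Ep300 (all 0.99), the last a histone acetyltransferase, and for Dnmt3a Ahnak2, Tacc2 and Airn (all 0.99), the last an antisense RNA whose reads cannot be told apart from those of Igf2r where they overlap. For Tet2 they were Tmem245 (0.99), Msh3 and R3hdm1 (both 0.98), and for Tet1 Zfp746 (0.99), Fbxl17 and Il7r (both 0.97). For Dnmt3b they were Prickle3 (0.99), Plxnd1 (0.98) and Fbxl18 (0.97). For Ezh1 they were Trpv2, Xpa (both 0.99) and Macf1 (0.98), and for Ezh2 Ifit2 (0.98), Ptk7 and Ctc1 (both 0.97). With 8 points and this many candidates, values near 1 are reached for every one of the 10.

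Partners and readers of DNA methylation included several genes that rose. Of 14 tested, 6 were called higher, 0 lower and 8 not called by edgeR (42.9% higher, beside 30.3% of all genes). At an unadjusted p under 0.05 there were 7, and DESeq2 called 1 lower and limma-voom 0. Zbtb38, a zinc finger protein that binds methylated DNA, rose from 69.8 ± 0.649 to 144 ± 9.63 CPM (SD), a log2 fold change of 1.05 ± 0.09 (SE, edgeR adjusted p 3.98e-05). Trim28, the co-repressor recruited by KRAB zinc finger proteins, rose from 145 ± 10.9 to 292 ± 11.8 CPM. Uhrf2, the paralog of Uhrf1, rose from 53.0 ± 1.32 to 83.9 ± 8.89 CPM (edgeR adjusted p 7.37e-04), whereas Uhrf1 itself was not called; the difference between the paralogs was not tested. Mbd3, a subunit of the NuRD complex, rose from 21 ± 4.89 to 31.9 ± 1.62 CPM.

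Of 14 genes that act beside the Tet enzymes or in base excision repair, 6 were higher, 2 lower and 6 not called (42.9% higher and 14.3% lower, beside 30.3% and 27.8% of all genes). The share called in either direction is about the 58.1% of all genes. Cxxc5, a CXXC zinc finger protein, rose from 5.85 ± 0.929 to 17.1 ± 1.76 CPM (SD), a log2 fold change of 1.55 ± 0.14 (SE, edgeR adjusted p 6.90e-05). Apex1, the endonuclease that cuts abasic sites, rose from 10.03 ± 0.871 to 18.4 ± 1.34 CPM, and Idh2, a mitochondrial source of the Tet co-substrate 2-oxoglutarate, from 65.7 ± 1.58 to 109 ± 6.81 CPM. Gadd45a, a stress-response gene, fell from 24.3 ± 2.03 to 13.6 ± 1.47 CPM. Gadd45b and Gadd45g, named after their values were seen, went the other way and were called higher. Gadd45b rose from 11.7 ± 0.75 to 18.2 ± 2.26 CPM and Gadd45g from 9.68 ± 1.22 to 17.5 ± 2.19 CPM. Tdg, the glycosylase that removes oxidised methylcytosine, was among the 6 not called (named after its values were seen).

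PRC2 partners were called in both directions at about the shares of all genes. Of the 10 tested besides Ezh1, Ezh2 and Suz12, 3 were higher, 3 lower and 4 not called (30.0% each way, beside 30.3% and 27.8% of all genes), with a median of 0.07 on the log2 scale. Epop, an accessory subunit, rose from 0.749 ± 0.0841 to 7.19 ± 0.943 CPM (SD), a log2 fold change of 3.25 ± 0.20 (SE, edgeR adjusted p 1.23e-05). Rbbp4, a histone-binding subunit shared with other complexes, rose from 91.1 ± 2.17 to 136 ± 5.83 CPM. Phf1, a Polycomb-like accessory subunit, fell from 32.3 ± 5.91 to 15.5 ± 2.77 CPM, and Lcor, whose locus also encodes a PRC2 partner, from 89.4 ± 7.51 to 52.7 ± 3.4 CPM. The reads were counted per gene, so the products of Lcor cannot be told apart. Eed, another core subunit, was not called (edgeR adjusted p 0.881, named after its values were seen), and nor were Ezh2 and Suz12. Rbbp7, also on this list and named after its values were seen, was called higher. Its log2 fold change was 0.81 (edgeR adjusted p 0.0009998).

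PRC1 places ubiquitin on histone H2A. Of 24 subunits tested, 13 were higher (54.2%, beside 30.3% of all genes), 5 lower (20.8%, beside 27.8%) and 6 not called, but with epithelial scaling 3 were higher and 5 lower. The median was 0.48 on the log2 scale. Under that scaling 40.7% of all genes were called, above the share of the 24, and 26.6% of all calls were higher, beside 52.2% with TMM. Rnf2, the catalytic subunit, rose from 21.4 ± 0.987 to 39.3 ± 2.83 CPM (SD), a log2 fold change of 0.88 ± 0.09 (SE, edgeR adjusted p 1.15e-04). Yaf2, of variant PRC1, rose from 8.65 ± 0.977 to 21.2 ± 1.71 CPM, and Bmi1, of canonical PRC1, from 23.0 ± 1.02 to 35.3 ± 1.97 CPM. Phc2 rose from 39.2 ± 2.64 to 59.1 ± 2.97 CPM while its paralog Phc3 fell from 93.5 ± 3.33 to 49.5 ± 11.3 CPM. Of 5 genes that oppose Polycomb marks, 2 were higher and 2 lower (40.0% each way, beside 30.3% and 27.8% of all genes). Kdm6b, a demethylase of histone H3 lysine 27, fell from 47.2 ± 12.3 to 20.9 ± 4.75 CPM (edgeR adjusted p 0.00192) and Asxl2 from 103 ± 2.04 to 69.2 ± 8.28 CPM. Asxl1 and Bap1 rose, to 87.6 ± 14.5 and 55.4 ± 1.85 CPM, so genes of the H2A deubiquitinase, which include Asxl2, went both ways. The X-linked demethylase Kdm6a, named after its values were seen, was not called.

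**Figure D5:**
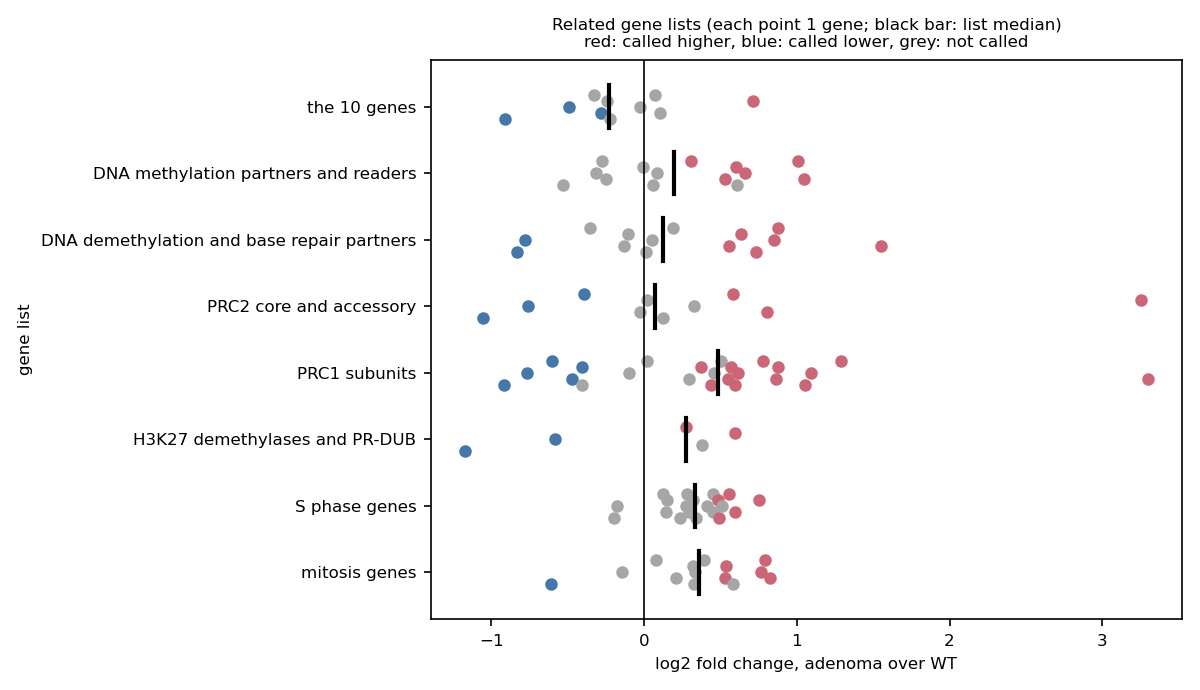
Log2 fold change, adenoma over WT, of each tested gene of 7 related lists, with 1 point per gene and a bar at each list's median. PRC1 has the highest median, 0.48. Epop (3.25) and Scml2 (3.30) are the points farthest to the right, the latter named after its value was seen. In adenoma 2, Scml2 was at 0.891 CPM, inside the WT range of 0.654 to 1.113 CPM.

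Markers of other cell types moved between the groups beside these results, and their part in them was not tested. The summed level of 8 fibroblast markers was 1134 to 1498 CPM in WT and 2763 to 3476 CPM in adenoma. Of these markers 7 were called higher (87.5%, beside 30.3% of all genes) and 0 lower. For 10 T cell markers the sum was 60.2 to 74.7 CPM in WT and 17.3 to 27.6 CPM in adenoma. Of the 9 tested, 7 were called lower (77.8%, beside 27.8% of all genes) and 0 higher. For 8 smooth muscle markers the sum was 954.5 to 1725 and 428 to 1065 CPM, with 4 called lower (50%) and 0 higher. For 8 endothelial markers it was 165 to 180 CPM and 266 to 324 CPM, with 5 called higher (62.5%) and 0 lower. The 15 epithelial markers summed to 8051 to 9139 CPM in WT and 7648 to 12700 CPM in adenoma, with adenoma 2 the lowest of the 8. Of them 10 were called higher (66.7%) and 2 lower (13.3%). Macrophage and neutrophil markers reached 655 CPM in adenoma 2, and the other 7 libraries ranged from 227 to 362 CPM. B and plasma cell markers ranged from 1326 to 1405 CPM in WT and from 989 to 1539 CPM in adenoma, enteric neuron and glia markers from 23.8 to 25.9 and from 23.1 to 35.0 CPM, and pancreatic acinar markers from 5.01 to 1065 and from 93.3 to 773 CPM. Of the 10 macrophage and neutrophil markers 3 were called higher and 1 lower. For B and plasma cells these counts were 1 and 2, for neurons and glia 1 and 5, and for pancreatic acini 0 and 0. None of the fibroblast, T cell, smooth muscle, endothelial, epithelial, macrophage or neutrophil markers was at 0 in a whole group. With libraries scaled to equal epithelial markers, Tet3 was at -1.18, Dnmt3a at -0.76 and Ezh1 at -0.57 on the log2 scale, each still called lower (edgeR adjusted p 0.0123, 0.04996 and 0.0496), Suz12 was called lower as well (-0.56), and Dnmt3b was at 0.43 with no call (0.351). With the Xist pattern as a covariate, Tet3 was at -1.15 and still called (adjusted p 0.0262), and Dnmt3a, Dnmt3b and Ezh1 were not called (0.0605, 0.124 and 0.152).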

How the data were processed

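RNA of whole tissue was extracted with RNeasy kits, made into unstranded TruSeq v2 libraries and sequenced in short paired ends on a NextSeq, per the labels' protocols. The table the authors deposited holds raw counts for each gene. TopHat2, HTSeq, FastQC and build GRCm38 are named in the submitters' processing notes. Versions, annotation release and strand setting were not given in the sources. All 8 libraries name the same lane, so no batch could be tested.

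The counts were tested in edgeR 4.0.16 (R 4.3.3): filterByExpr by group, TMM scaling, robust quasi-likelihood fits of adenoma against WT over 18345 genes and Benjamini-Hochberg adjustment at 0.05. The SE is the log2 fold change divided by the square root of F, and intervals are 95% from the test's t distribution. Log2 CPM used a prior count of 2. Exon lengths are unions of GENCODE M21 exons, and symbols matched 37607 of 39179 identifiers. The code was tested on simulated counts. Named genes were the 10 described, of each other pathway list up to 4 called genes lowest in adjusted p, with the leading one of the minority direction, and the 3 most similar genes of each member. The 10 genes and all lists were chosen with earlier results of these data known. Alternatives were other scalings and filters, DESeq2 1.42.0, limma 3.58.1 with voom, a replicate block, a covariate and left-out libraries.

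Same-numbered WT and adenoma libraries were checked for pairing. Counts of replicate libraries differed by more than sampling noise in each pair. This does not show that they came from separate mice. Each library was taken as 1 replicate.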

Additional observations from a re-analysis of the deposited data

Results flagged for a closer look

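In the adenoma group a few values stood far from the other 4 libraries by Dixon's test at its 95% critical value, which chance passes in about 1 group in 20. It was run on the 10 genes, the summed lists, the ratios and on Hoxb13, Pnlip, Apc and Kdm6a, so some values would pass by chance. Hoxb13 and Pnlip were already known to stand apart, so their passing was fixed in advance. Hoxb13 was at 245 CPM in adenoma 2. Pnlip was at 63.5 CPM and the summed pancreatic acinar markers at 773 CPM in adenoma 5. The summed CPM of the PRC2 partner list was 530.6 in adenoma 5, against 504 to 510.2 in the other adenomas and 458 to 481 in WT. The 10 genes themselves gave no such value.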

How the results depend on the processing

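Over 21 other settings, no fold change of the 10 genes reversed a call. In 1 of them, the Xist covariate, adenoma 1 alone is set against WT, so its calls below rest on that library. Tet3 was called in 21, Dnmt3a in 16, Ezh1 in 16 and Dnmt3b in 13. Tet2 and Suz12, not called with the chosen design, were called lower in 3 each and Tet1 in 2, and Dnmt1, Uhrf1 and Ezh2 in 0. The number of the 10 called higher, 1 with the chosen design, was 0 under epithelial scaling, a filter of 5 CPM in 3 libraries, without WT 1 and adenoma 5, with the Xist covariate, and, chosen after seeing the data, under S phase scaling and without WT 1, adenoma 2 and adenoma 5. The number called lower, 3 with the chosen design, was 1 under total count scaling, without WT 1 and adenoma 5 and with the Xist covariate, and 5 under the 5 CPM filter and without WT 1, adenoma 2 and adenoma 5; with no filter it was 2. Leaving out each library in turn gave 0 to 1 higher and 2 to 5 lower, with 5 lower without adenoma 2. The share of all genes called moved as well, from 58.1% to 67.5% without adenoma 2 and to 46.4% without WT 3. It was 57.1% under total count scaling, 40.7% under epithelial scaling, 42.7% under S phase scaling and 42.7% without WT 1 and adenoma 5. With no filter it was 38.6%, with the 5 CPM filter 59.3%, and without WT 1, adenoma 2 and adenoma 5 it was 64.2%. Why these counts moved was not tested.

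Same-numbered libraries correlated at -0.018, 0.051 and 0.061 in their departures from the group means, so the numbers were not taken as pairs. With the replicate number as a block, 1 of the 10 was called higher and 1 lower, and 35.7% of all genes were called, beside 58.1%. With the Xist covariate 29.3% were called.

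PRC1 subunits called higher were 13 with the chosen design, 3 under epithelial scaling and 4 under S phase scaling. Of all 18345 genes, 5558 were called higher with the chosen design, 1987 under epithelial scaling and 1997 under S phase scaling. Epithelial and S phase scaling gave 2 methylation partners higher in place of 6, 1 demethylation partner in place of 6, and 0 S phase genes in place of 5. S phase genes called higher were 12 without adenoma 2, 10 under total count scaling and 0 with the block. They were 8 with no filter, 2 without WT 1 and adenoma 5, and 1 with the Xist covariate. Of all genes, 6185 were called higher without adenoma 2, 6070 under total count scaling and 3345 with the block. The number was 5777 with no filter, 4146 without WT 1 and adenoma 5, 4808 without WT 1, and 3074 with the Xist covariate. Mitosis genes called higher were 9 without adenoma 2, in place of 5, 3 without WT 1, and 0 with the block, the Xist covariate or epithelial scaling. With the block or the Xist covariate, 3 methylation partners were higher in place of 6, and 2 PRC1 subunits were lower in place of 5. Without WT 3, 3 PRC1 subunits were lower. Methylation partners called lower, 0 with the chosen design, were 2 without adenoma 2. Of the genes opposing Polycomb marks, 0 were higher in place of 2 under epithelial or S phase scaling and with the covariate. PRC2 partners called higher were 1 in place of 3 under epithelial scaling. Dnmt3b and Tet1, at 84 to 250 and 100 to 157 counts per library, were the least precise of the 10 in counting.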
